A study of Sus scrofa with 11 samples.

Results

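The complement, coagulation and fibrinolysis genes of the wound were followed as 1 group of 33 named genes, chosen by gene symbol in the deposited expression table, and each symbol matched 1 row of the 30376 in it. The members were sorted by role into 9 sets, which were C1q, C1r and C1s of the classical pathway, C2 and C3, the alternative pathway, the terminal pathway, the anaphylatoxin receptors, the complement regulators, the coagulation factors, the anticoagulants and the plasminogen activators with their receptor and inhibitor. RNA came from full-thickness punch wounds in the skin of Yucatan minipigs, excised on day 10 after wounding, with 1 library per wound. The 7 diabetic wounds were those of a female minipig given streptozotocin, a toxin of the insulin-producing beta cells, then insulin, which was withdrawn before wounding. The 4 non-diabetic wounds were those of another Yucatan minipig without streptozotocin. All wounds of a group came from 1 animal, so diabetes and the individual animal cannot be told apart, and the p-values here measure the spread between wounds of the same pig. The library names also ended differently in the 2 groups, with a meaning that the labels do not give, so that difference cannot be told apart from diabetes either.

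Complement is a set of plasma and tissue proteins that coat microbes and dying cells. The classical pathway starts when C1q binds its target and activates the proteases C1r and C1s, the alternative pathway amplifies deposited C3 through factor B, factor D and properdin, and both end in a pore built from C5 to C9. Coagulation starts when tissue factor on cells meets plasma factors and ends in a fibrin clot, which factor XIII cross-links and plasmin, made from plasminogen by its activators, dissolves. Most of the plasma factors are made in the liver, while macrophages make C1q, neutrophils and other myeloid cells make properdin, and many cells of the skin make C1r, C1s, C3, the membrane regulators and the plasminogen activators. In a healing wound these systems act at the fibrin matrix that cells cross and clear.

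The 3 C1q genes lie side by side on the same strand of chromosome 6, with 3377 bases between C1QA and C1QC and 4215 bases between C1QC and C1QB, and CFP, which encodes properdin, lies on chromosome X. The 250 bases before the gene start of these 4 genes are shown because the C1q chains kept nearly fixed shares of their sum in every wound and CFP was the member called between the groups. They were read 5′ to 3′ on the gene's strand from the RefSeq genome of Sscrofa11.1, at chr6:80586009-80586258 on the plus strand for C1QA, chr6:80592341-80592590 on the plus strand for C1QC, chr6:80601430-80601679 on the plus strand for C1QB and chrX:42152880-42153129 on the minus strand for CFP. Capitals mark the letters GAGGAA or GGAAGT on either strand, both of which hold the GGAA core that ETS family factors such as PU.1 bind.
C1QA: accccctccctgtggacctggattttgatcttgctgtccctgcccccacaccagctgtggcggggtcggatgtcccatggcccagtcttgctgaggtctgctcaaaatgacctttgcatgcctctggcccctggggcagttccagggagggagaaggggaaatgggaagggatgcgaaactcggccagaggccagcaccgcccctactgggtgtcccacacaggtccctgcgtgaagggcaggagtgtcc
C1QC: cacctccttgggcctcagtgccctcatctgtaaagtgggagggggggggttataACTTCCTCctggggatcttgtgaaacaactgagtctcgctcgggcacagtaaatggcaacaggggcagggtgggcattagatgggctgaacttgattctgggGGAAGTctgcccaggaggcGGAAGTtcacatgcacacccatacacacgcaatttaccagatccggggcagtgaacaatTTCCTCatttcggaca
C1QB: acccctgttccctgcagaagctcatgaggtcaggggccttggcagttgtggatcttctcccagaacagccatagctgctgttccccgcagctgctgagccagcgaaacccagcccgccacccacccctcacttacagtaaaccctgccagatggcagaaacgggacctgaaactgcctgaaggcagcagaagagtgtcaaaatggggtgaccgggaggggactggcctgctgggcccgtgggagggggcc
CFP: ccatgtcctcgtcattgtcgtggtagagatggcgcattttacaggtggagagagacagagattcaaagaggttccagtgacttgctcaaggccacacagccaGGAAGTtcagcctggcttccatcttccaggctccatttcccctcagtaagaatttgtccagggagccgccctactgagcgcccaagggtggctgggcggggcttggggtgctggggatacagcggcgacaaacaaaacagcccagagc
The window of C1QC held GGAAGT 3 times and GAGGAA 2 times, with 1 pair of them overlapping on the opposite strand, and the window of CFP held GGAAGT once, with its first base 148 bases before the gene start. The windows of C1QA and C1QB held neither of these, although the shorter letters GGAA occurred in both, on 1 strand or the other. Across 30353 windows of the same length GAGGAA stood in 21.4% and GGAAGT in 17.2%, against 12 and 14 of the 33 member windows. Of 3 other motifs, the AP-1 letters TGANTCA stood in 3 member windows and in 6.17% of all windows, the interferon-response type (GAAA, any 2 bases, GAAA) in 4 and in 3.46%, and TATAAA in 5 and in 11.9%. A match is a stretch of letters and not a bound site.

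Reads on genes numbered 28314785 to 40168372 in the diabetic libraries, against 32961018 to 36872400 in the non-diabetic ones. Levels are given as FPKM, reads scaled to gene length and to a divisor for each library, and 1 read on a gene of 2 kb was worth 0.0112 to 0.0194 FPKM. The divisor did not follow the reads on genes. It was 0.854 times those reads in non-diabetic replicate 1, 1.06 times in non-diabetic replicate 3 and 1.18 times in diabetic replicate 2. How it was set is not given. The first principal component of the genes tested (44.5% of the variance) held 2 wounds far from all others, diabetic replicate 4 and non-diabetic replicate 1. Both wounds were low in keratinocyte markers and in S100A8, S100A9 and S100A12, which make up nearly all of the neutrophil marker sum. Summed keratinocyte markers (7 genes) reached 37.0 FPKM in diabetic replicate 4 and 279 FPKM in non-diabetic replicate 1, against 1565 to 6369 FPKM in the other wounds, and summed neutrophil markers (8 genes) reached 46.2 and 301 FPKM, against 3808 to 12591 FPKM. Diabetic replicate 4 was the highest diabetic wound for 11 of the 31 members tested and non-diabetic replicate 1 the highest non-diabetic wound for 14, so values without both are given where a result turns on them. Wounds were also split by the first letter of the library name, L or R. Non-diabetic replicate 1 is L-named and diabetic replicate 4 R-named, and no such split was made without them. Of the markers that define skin, those of fibroblasts (9 genes, 19225 to 65401 summed FPKM) were high in all wounds, and those of keratinocytes in all but these 2. In bulk tissue, more cells of a type and more RNA per cell cannot be told apart.

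Of the 33 members, 31 passed the filter of at least 0.5 FPKM in at least 4 wounds, and C5 and C6 did not. On log2(FPKM + 0.5), 1 member (CFP) was called higher in diabetic wounds by limma at an adjusted p under 0.05 and a log2 fold change over 0.5, where 1.35% of all 13956 genes tested were called higher. None was called lower, where 1.66% of all genes were; by the unadjusted p under 0.05, 2 members were lower (9.39% of all genes), and voom on recovered reads, the other method run, also called 0 lower. By the same unadjusted p 14 members (45.2%) were higher, against 9.01% of all genes. The fold change was above 0 for 25 of the 31 members (52.3% of all genes) with a median of 0.31, beside a median of 0.01 over all genes. With values rescaled to TPM the count at an unadjusted p under 0.05 fell to 9 higher and the median to 0.25, beside -0.06 over all genes. Without non-diabetic replicate 3, the wound in which 17 members had their lowest non-diabetic level, 4 members (12.9%) were higher at that p and 23 were above 0. The median was then 0.29, beside 0.02 over all genes. With voom on recovered reads 10 members were higher and 3 lower at that p. The share of all genes at that p was not counted under these 3 settings, so the excess over all genes is shown for the main setting alone. The groups did not overlap for 2 members that were higher in diabetic wounds (CFP and CFB; 2.69% of all genes) and for 1 that was lower (F5; 2.96% of all genes). CFB, C7, CD55 and F10 passed the filter through the diabetic wounds, since fewer than 4 non-diabetic wounds reached 0.5 FPKM in them, so their place among the higher members is no support for a direction.

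**Figure D1:**
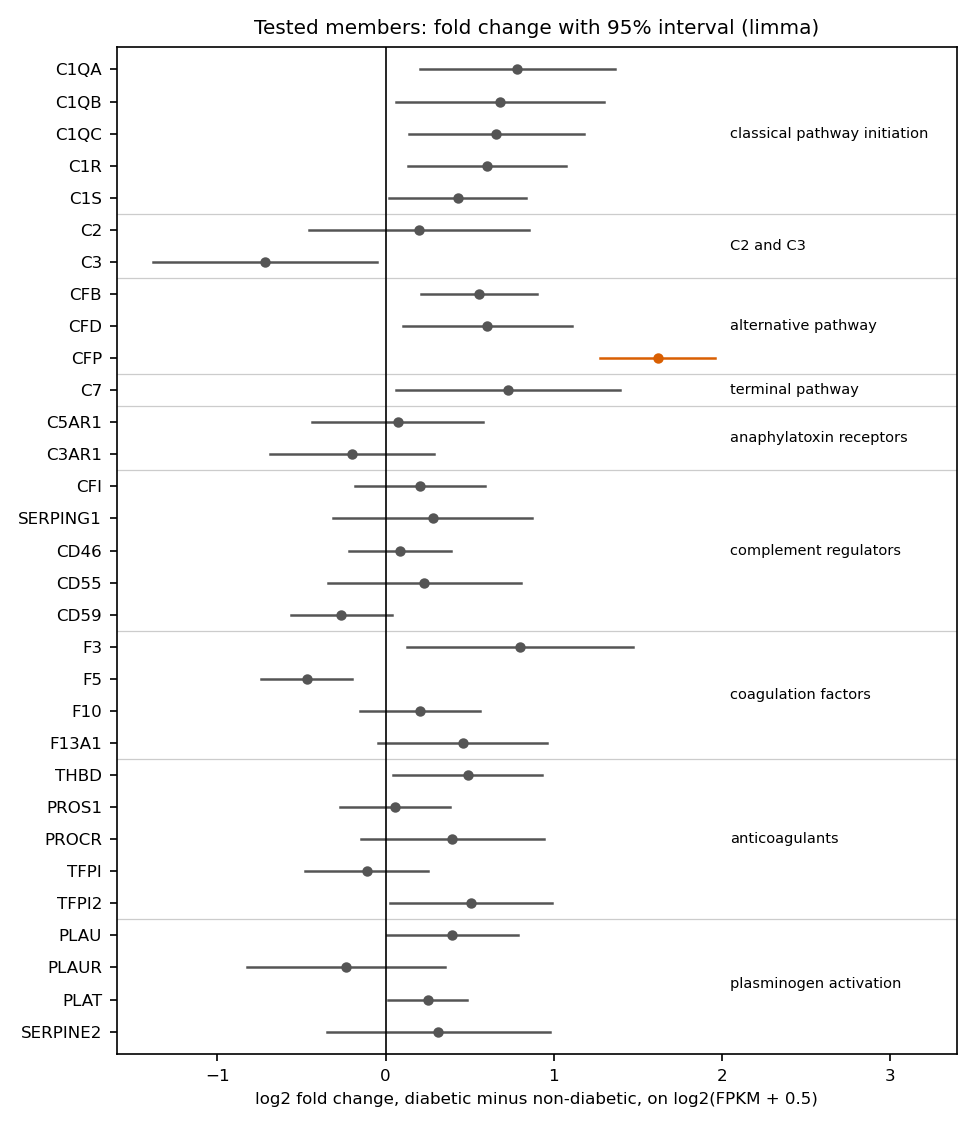
Log2 fold change of the 31 tested members on log2(FPKM + 0.5), diabetic minus non-diabetic, with the 95% interval from limma as bars and the members grouped by role. CFP, in orange, was the member called, at 1.62, and 25 of the 31 points lie right of 0.

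Properdin (CFP), the plasma protein that stabilises the alternative pathway convertase, showed the largest difference of the tested members. Its levels in diabetic wounds 1 to 7 were 6.33, 7.18, 9.03, 9.53, 8.89, 8.51 and 10.9 FPKM, and in non-diabetic wounds 1 to 4 they were 3.4, 2.11, 2.06 and 2.34 FPKM. The lowest diabetic wound was above the highest non-diabetic wound. The means were 8.62 ± 1.5 (SD, n = 7) and 2.48 ± 0.625 FPKM (SD, n = 4), and the log2 fold change was 1.62 (SE 0.16, 95% interval 1.28 to 1.96; limma adjusted p = 0.000332, rank 15 of the genes tested by p). The values rested on 520 to 825 reads in the diabetic libraries and 156 to 226 in the non-diabetic ones. Among wounds whose library name began with L the difference was 1.32, and among those beginning with R it was 1.88. Without the 2 wounds apart it was 1.73 (adjusted p = 0.00107).

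CFP was also set beside summed C1q and the markers of macrophages, of neutrophils and of B and plasma cells. Summed macrophage markers (9 genes) ran from 325 to 529 FPKM in diabetic and from 275 to 440 FPKM in non-diabetic wounds. Of the 9, 2 (MRC1 and CD14) were called higher, where 1.35% of all genes were, and 0 lower (1.66%). The fold change was above 0 for 7 and below 0 for 2, down to -0.54. By the unadjusted limma p under 0.05, 4 were higher (9.01% of all genes) and 1 lower (9.39%). Per 1000 FPKM of those markers, CFP stood at 18.7 to 24.4 in diabetic and 5.93 to 7.72 in non-diabetic wounds, so the groups stayed apart. Per 1000 FPKM of summed C1q it stood at 7.37 to 14.9 and 3.97 to 6.29, again without overlap. ITGAM, a gene of myeloid cells outside the macrophage list, was itself called higher (log2 fold change 1.22), and CFP was not scaled to it. The part of macrophages and other myeloid cells in the CFP level was not tested. Per 1000 FPKM of neutrophil markers the groups overlapped. The 2 wounds with the lowest sums of those markers, where CFP was 9.53 (diabetic) and 3.4 FPKM (non-diabetic), were also lowest in keratinocyte markers. The sum therefore cannot be read as neutrophil content alone. That sum is carried by the 3 S100 genes, however, and 1 other marker of the list, ELANE, did not follow it. ELANE, a granule protease, stood at 1.24 FPKM in diabetic replicate 4, its highest wound, and at 0.689 FPKM in non-diabetic replicate 1. The levels of the remaining neutrophil markers are not given here. The part of neutrophils in the CFP level was not tested. Summed B and plasma cell markers were 45.6 to 104 FPKM in diabetic wounds against 14.8 to 78.2 FPKM in non-diabetic ones, with 3 of the 4 tested (CD79A, CD79B and MZB1) called higher, where 1.35% of all genes were. CD79B passed the filter through the diabetic wounds alone. Their part in the CFP level was not tested.

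Factor B (CFB), the protease subunit of the alternative convertase, was low in all wounds. Its levels were 1.06, 1.12, 1.74, 1.27, 1.07, 1.43 and 0.736 FPKM in diabetic wounds 1 to 7 and 0.437, 0.692, 0.730 and 0.730 FPKM in non-diabetic wounds 1 to 4. The groups did not overlap, but diabetic replicate 7 and the highest non-diabetic wounds were nearly equal. The log2 fold change was 0.56 (SE 0.16, adjusted p = 0.0794) on 50 to 180 reads in diabetic and 33 to 75 in non-diabetic libraries, so CFB did not pass the test; without diabetic replicate 7 it did (0.63, adjusted p = 0.0463). The pseudocount of 0.5 FPKM is close to these levels, and with 0.1 FPKM the difference was 0.79 (adjusted p = 0.0771). Factor D (CFD, adipsin), which cleaves factor B, had 58.9 to 122 FPKM in diabetic wounds against 43.5 to 82.1 FPKM in non-diabetic ones, with 4 of 7 diabetic wounds above every non-diabetic one. Its log2 fold change was 0.60 (95% interval 0.10 to 1.11, adjusted p = 0.184), made of 0.01 among L-named and 1.10 among R-named wounds. Adipocyte markers (5 genes), which mark the other main source of adipsin, summed to 276 to 826 FPKM and 273 to 470 FPKM. The single genes did not follow the sum, since 4 of the 5 had a fold change below 0 and the median was -1.01. FABP4 alone was above 0 (0.92). Of the 5, 0 were called higher and 1 lower (1.66% of all genes), and the part of adipocytes was not tested. CFD lies within the span of MED16 on the opposite strand, which stood at 7.64 FPKM on average.

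**Figure D2:**
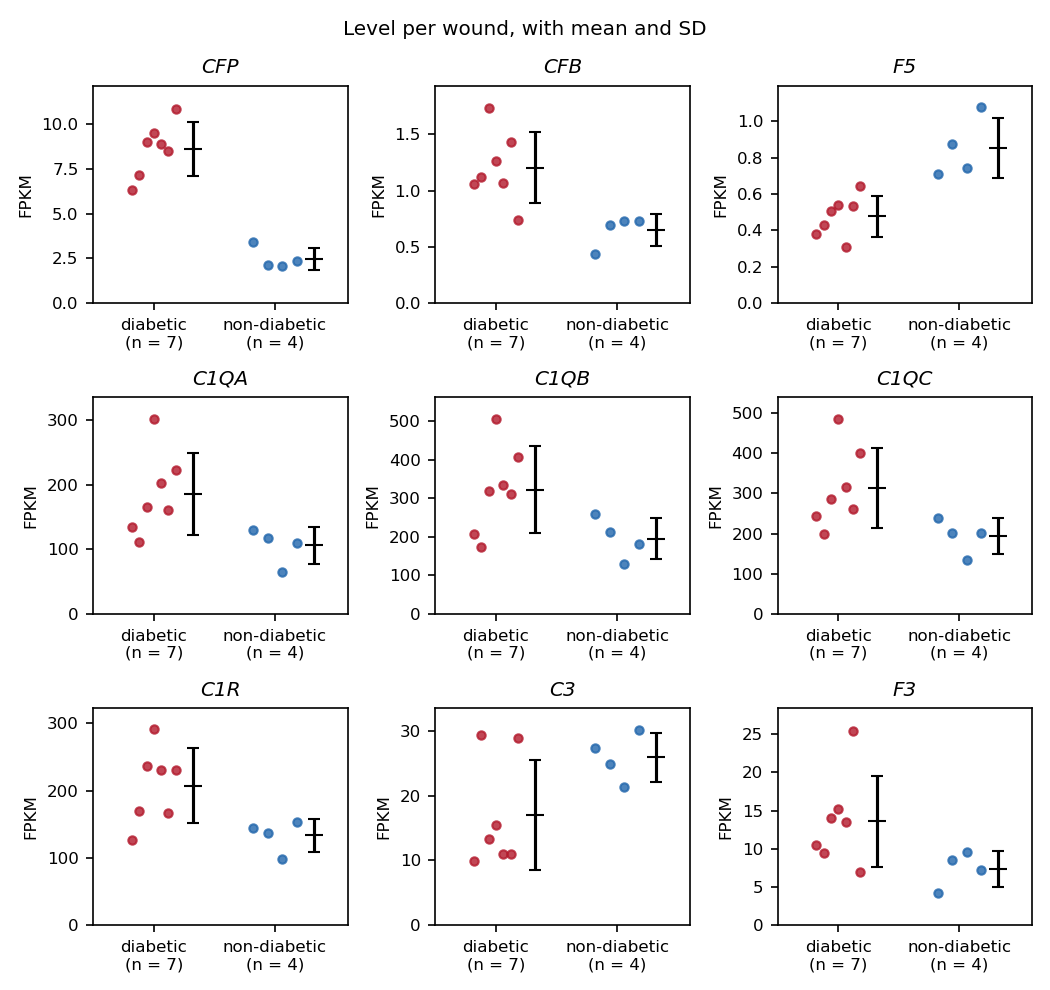
FPKM per wound for 9 members, with diabetic wounds (red, n = 7) in replicate order from left to right, non-diabetic wounds (blue, n = 4) beside them, and bars giving the mean and SD. CFP and CFB were higher in every diabetic wound than in any non-diabetic one, F5 was lower, and the other 6 overlapped.

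The genes of the C1 complex were abundant in every wound, and C1QB and C1QC had the highest mean levels of all members. C1QA, C1QB and C1QC encode the 3 chains of C1q, the recognition protein made mainly by macrophages. C1QA stood at 135, 112, 166, 302, 203, 161 and 223 FPKM in diabetic wounds 1 to 7 and at 130, 118, 65.5 and 110 FPKM in non-diabetic wounds 1 to 4. Diabetic replicate 4 was the highest wound and non-diabetic replicate 3 the lowest, and 6 of 7 diabetic wounds were above every non-diabetic one. The log2 fold change was 0.79 (SE 0.26, adjusted p = 0.134) in C1QA, 0.68 (adjusted p = 0.223) in C1QB and 0.66 (adjusted p = 0.159) in C1QC, so no chain passed the test. Without the 2 wounds apart the values were 0.77, 0.71 and 0.65. Without non-diabetic replicate 3 they were 0.57, 0.50 and 0.49.

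The chains kept nearly fixed shares of their sum. C1QA made up 19.9% to 23.9%, C1QB 35.4% to 42.4% and C1QC 35.6% to 41.6% of summed C1q over the 11 wounds, while the sum itself ran from 328 to 1294 FPKM. The sum was 821 ± 274 FPKM in diabetic (SD, n = 7) and 496 ± 125 FPKM in non-diabetic wounds (SD, n = 4). Set against the 9 macrophage markers, C1q amounted to 1.45 to 2.53 times their sum in diabetic and 1.19 to 1.5 times in non-diabetic wounds, with an overlap of the 2 ranges. The 2 sorts of library name gave different values, since C1QA differed by 0.13 among L-named wounds and by 1.34 among R-named ones, and C1QB by -0.06 and 1.31. This split includes the 2 wounds apart, which were the highest of their groups for both genes. How far they carry it was not tested. The interaction of group and letter was not called for C1QA (adjusted p = 0.0788) or C1QB (adjusted p = 0.0618), where 6.46% of all genes were.

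**Figure D3:**
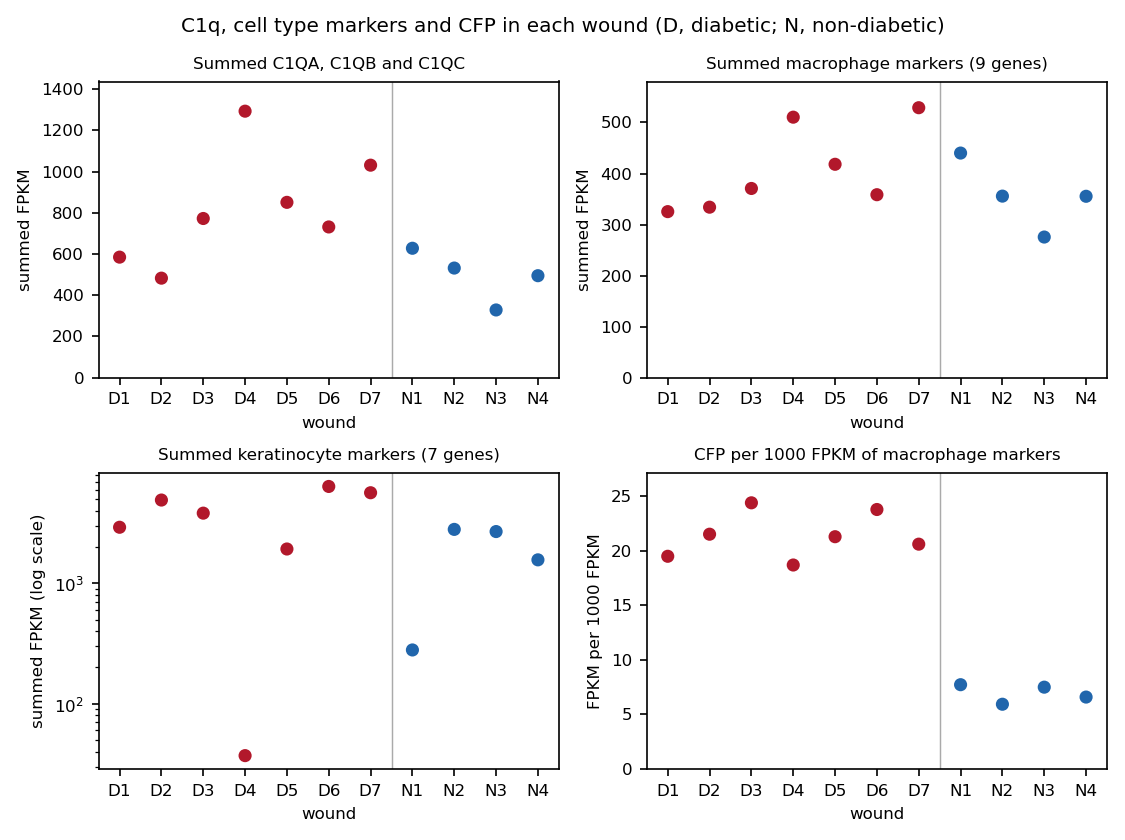
Summed FPKM of the C1q chains, of 9 macrophage markers and of 7 keratinocyte markers (log scale), and CFP per 1000 FPKM of macrophage markers, by wound (D diabetic, N non-diabetic, number the replicate). Keratinocyte markers are lowest in D4 and N1, summed C1q is highest in D4 and D7, and CFP per macrophage marker is 18.7 to 24.4 in diabetic and 5.93 to 7.72 in non-diabetic wounds.

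C1R and C1S, the proteases that C1q activates, lie 15159 bases apart on opposite strands of chromosome 5. C1R stood at 126, 169, 236, 292, 230, 167 and 230 FPKM in diabetic wounds and 144, 137, 98.5 and 154 FPKM in non-diabetic wounds, with diabetic replicate 1 as the diabetic wound inside the non-diabetic range. Its log2 fold change was 0.60 (SE 0.21, adjusted p = 0.154). C1S had 183 ± 44.8 against 134 ± 24.0 FPKM (SD, n = 7 and n = 4) and a log2 fold change of 0.43 (adjusted p = 0.247). The level of C1R was 0.957 to 1.37 times that of C1S in diabetic and 0.960 to 1.03 times in non-diabetic wounds, with the highest ratio in diabetic replicate 7. All 5 genes of this set were above 0 and none passed the test.

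Neither C2 nor C3 was called. C2, the protease subunit of the classical convertase, is separated from CFB by 34 bases on chromosome 7 and had 7.73 to 26.4 FPKM in diabetic wounds against 9.29 to 18.8 FPKM in the non-diabetic wounds (log2 fold change 0.20, adjusted p = 0.782). C3, the protein on which all pathways converge, stood at 9.91, 29.3, 13.3, 15.5, 10.9, 10.9 and 28.9 FPKM in diabetic wounds 1 to 7 and at 27.4, 24.9, 21.3 and 30.2 FPKM in non-diabetic wounds 1 to 4. In 5 diabetic wounds C3 was below every non-diabetic wound, and diabetic replicates 2 and 7 lay within the non-diabetic range. C3 gave a log2 fold change of -0.72 (95% interval -1.38 to -0.05, adjusted p = 0.236), with -0.71 among L-named and -0.71 among R-named wounds. C3 was thus not called, and its spread among diabetic wounds (a coefficient of variation of 50.1%) was exceeded among the members by those of C6 and C7 alone.

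Of the 3 terminal pathway members C5 and C6 were under the filter, and C7 was tested and not called. C5, the source of the anaphylatoxin C5a, was read 4 to 26 times per wound and stood at 0.0738 ± 0.0303 FPKM in diabetic wounds against 0.107 ± 0.0411 FPKM in non-diabetic ones (SD, n = 7 and n = 4; two-sided exact permutation test, p = 0.179). C6 had 0 reads in 9 of the 11 wounds, 2 in diabetic replicate 2 and 4 in diabetic replicate 7, and the 3 reads that a count of 0 allows correspond to 0.0233 to 0.0349 FPKM in those 9 wounds, for counting error only. C7, which anchors the pore to the membrane, stood at 0.555, 2.63, 1.2, 0.775, 0.510, 1.24 and 0.539 FPKM in diabetic and 0.513, 0.125, 0.296 and 0.641 FPKM in non-diabetic wounds. Diabetic replicate 2 was far above the rest, and 4 of 7 diabetic wounds were above every non-diabetic one. The log2 fold change of C7 was 0.73 (SE 0.31, adjusted p = 0.229), and 0.54 without diabetic replicate 2. C9 and C8G, further genes of the pore that were tested, had 2.049 ± 0.712 against 2.61 ± 0.221 FPKM (-0.33, adjusted p = 0.384) and 1.40 ± 0.551 against 0.921 ± 0.495 FPKM (0.43, adjusted p = 0.454), and are named after their values were seen.

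Neither receptor of the anaphylatoxins was called. C5AR1, the C5a receptor of neutrophils and macrophages, had 19.5 ± 5.39 against 18.6 ± 5.71 FPKM (log2 fold change 0.07, 95% interval -0.44 to 0.58). C3AR1, the C3a receptor, had 7.32 to 15.5 FPKM in diabetic and 7.49 to 17.9 FPKM in the other wounds (-0.20, 95% interval -0.68 to 0.29). Both intervals reach to either side of 0, and the sign of C5AR1 turned when non-diabetic replicate 3 or diabetic replicate 7 was left out.

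None of the 5 complement regulators was called, where 3.00% of all genes were called in either direction, and none reached an unadjusted p under 0.05 (18.4% of all genes). SERPING1, the C1 inhibitor that also restrains the contact system, was the most abundant of them, with 267 ± 90.1 FPKM in diabetic wounds against 213 ± 55.3 FPKM in the non-diabetic wounds (log2 fold change 0.28, 95% interval -0.31 to 0.87). The membrane regulators, which shield cells from their own complement, gave differences on either side of 0. CD59, which blocks the pore, had 49.6 ± 8.30 against 59.1 ± 5.87 FPKM (-0.26, 95% interval -0.57 to 0.04), and CD46, a cofactor for the cleavage of C3b and C4b, had 29.9 ± 5.73 against 27.9 ± 3.63 FPKM (0.09, 95% interval -0.22 to 0.39). CD55, which breaks up convertases, had 1.04 to 2.29 FPKM in diabetic wounds against 0.409 to 1.79 FPKM in non-diabetic ones (0.23), and without non-diabetic replicate 1 the value was -0.06. CFI, the protease that inactivates C3b, had 0.859 to 1.94 and 0.890 to 1.61 FPKM (0.20, 95% interval -0.18 to 0.59).

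**Figure D4:**
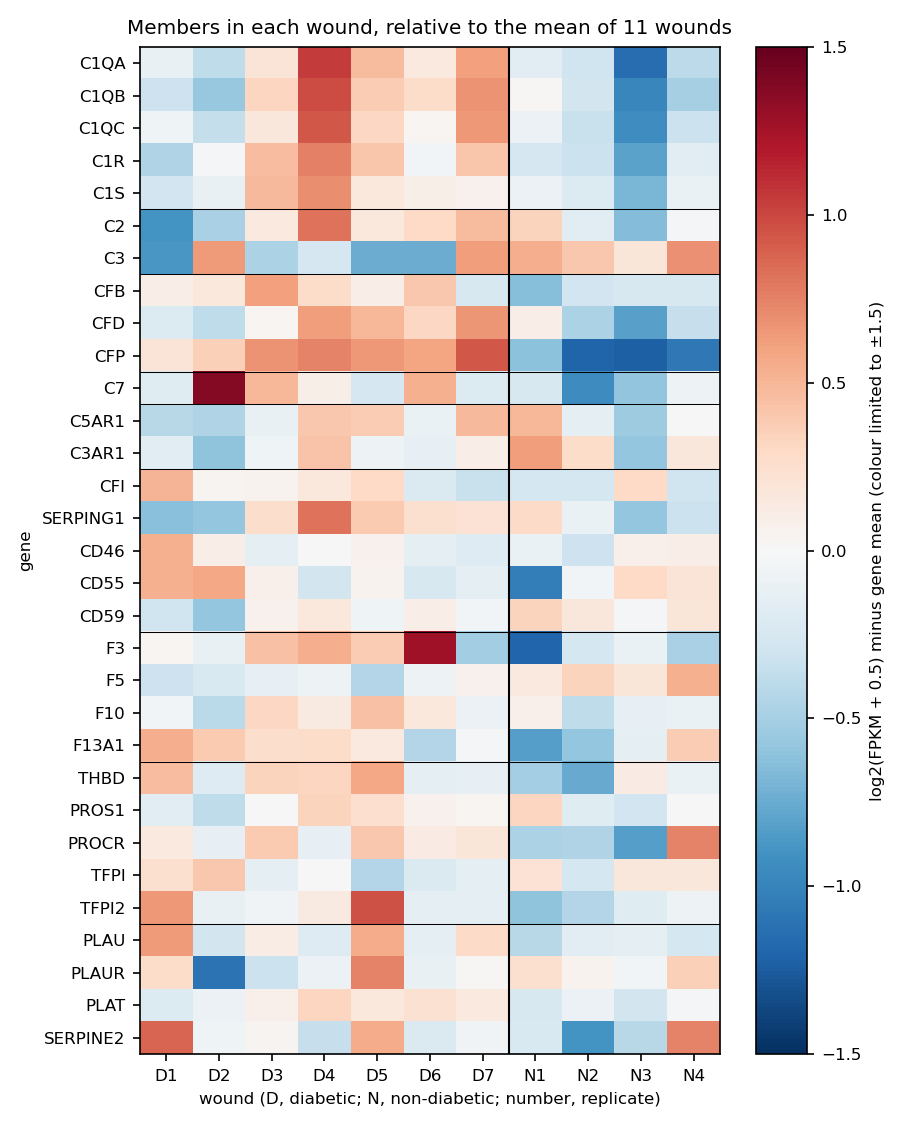
Level of the 31 tested members in each wound as log2(FPKM + 0.5) minus the gene's mean over the 11 wounds, with colours limited to 1.5 either way and lines between the sets by role. CFP is above its mean in all 7 diabetic wounds and below it in all 4 non-diabetic ones, and the C1q, C1r and C1s genes are highest in D4 and lowest in N3.

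Among the coagulation factors, tissue factor was higher on average and factor V lower, neither past the test. F3, the membrane receptor that starts clotting, stood at 10.5, 9.42, 14.1, 15.2, 13.5, 25.5 and 7.01 FPKM in diabetic wounds 1 to 7 and at 4.20, 8.46, 9.55 and 7.19 FPKM in non-diabetic wounds 1 to 4. The highest value was in diabetic replicate 6 and the lowest in non-diabetic replicate 1, and 5 of 7 diabetic wounds were above every non-diabetic one. F3 gave a log2 fold change of 0.80 (SE 0.31, 95% interval 0.13 to 1.47, adjusted p = 0.187), and 0.53 (adjusted p = 0.470) without the 2 wounds apart.

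F5, the cofactor of factor Xa, stood at 0.380, 0.431, 0.504, 0.540, 0.308, 0.533 and 0.643 FPKM in diabetic wounds 1 to 7 and at 0.713, 0.877, 0.741 and 1.08 FPKM in non-diabetic wounds 1 to 4. Every diabetic wound was below every non-diabetic wound, on 71 to 140 and 144 to 296 reads. Limma gave a log2 fold change of -0.47 (SE 0.12, adjusted p = 0.0630), which passed neither threshold. The values were -0.46 among L-named and -0.49 among R-named wounds, and -0.53 without the 2 wounds apart. With a pseudocount of 0.1 FPKM the fold change was -0.73 (adjusted p = 0.0763).

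F10, the zymogen of factor Xa, was read 20 to 52 times per diabetic and 15 to 30 times per non-diabetic wound (log2 fold change 0.21, adjusted p = 0.554). F13A1, the factor XIII subunit that cross-links fibrin and is made by dermal macrophages, stood at 54.2, 48.8, 44.5, 44.8, 41.0, 27.2 and 36.1 FPKM in diabetic wounds 1 to 7 and at 20.6, 24.6, 33.4 and 48.2 FPKM in non-diabetic wounds 1 to 4. The log2 fold change was 0.46 (SE 0.23, adjusted p = 0.322), but the 2 sorts of library name differed. It was 1.10 among L-named wounds (diabetic 1 to 3 against non-diabetic 1 and 2) and -0.13 among R-named wounds (diabetic 4 to 7 against non-diabetic 3 and 4). These splits rest on 3 against 2 L-named and 4 against 2 R-named wounds. Non-diabetic replicate 1, the lowest non-diabetic wound for F13A1, is L-named, and the split was not made without it.

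The anticoagulants act at the vessel wall and on tissue factor, and none of the 5 was called. THBD, the thrombomodulin of endothelium, had 7.78 to 13.7 FPKM in diabetic wounds against 5.14 to 9.81 FPKM in the non-diabetic wounds (log2 fold change 0.49, adjusted p = 0.224), and PROCR, the protein C receptor, 8.82 to 12.9 and 5.23 to 16.5 FPKM (0.40, adjusted p = 0.434). The high non-diabetic value of PROCR was that of replicate 4, and without it the fold change was 0.73 (adjusted p = 0.0365). Endothelial markers (7 genes) summed to 187 to 246 FPKM in diabetic wounds against 186 to 248 FPKM in non-diabetic ones. PROS1, the protein S cofactor, stood at 35.8 ± 5.87 and 34.5 ± 6.70 FPKM (0.06, 95% interval -0.27 to 0.38). TFPI, which blocks tissue factor with factor VIIa, was low at 0.899 ± 0.286 and 1.00 ± 0.215 FPKM (-0.11). Its relative TFPI2, a matrix-bound protease inhibitor, was far more abundant, with 40.3 to 86.1 FPKM in diabetic wounds against 29.0 to 42.0 FPKM in non-diabetic ones (0.51, 95% interval 0.03 to 0.99, adjusted p = 0.245), its highest values being those of diabetic replicates 1 and 5.

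The plasminogen activators were somewhat higher in diabetic wounds and their receptor was not, and none of the 4 genes passed the test. PLAU, the urokinase that migrating cells use, stood at 84.4, 44.9, 58.7, 47.5, 80.3, 49.5 and 66.4 FPKM in diabetic wounds 1 to 7 and at 40.4, 48.1, 48.8 and 45.0 FPKM in non-diabetic wounds 1 to 4. The non-diabetic wounds lay close together and 5 of 7 diabetic wounds were above them (log2 fold change 0.40, adjusted p = 0.263). PLAUR, the urokinase receptor, had 38.4 to 140 FPKM and 80.8 to 107 FPKM (-0.24, 95% interval -0.83 to 0.35). The level of PLAU was 0.575 to 1.17 times that of PLAUR in diabetic and 0.409 to 0.604 times in non-diabetic wounds, which overlapped in 1 diabetic wound. PLAT, the tissue-type activator, had 22.3 ± 2.77 against 18.6 ± 1.59 FPKM (0.25, SE 0.11, adjusted p = 0.237), the narrowest interval of the 4. SERPINE2, an inhibitor of thrombin and urokinase, had 13.2 to 31.6 and 8.92 to 28.7 FPKM (0.31, adjusted p = 0.640). PLAU overlaps CAMK2G on the opposite strand, which stood at 5.34 FPKM.

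Other genes of the same systems were counted by list. Of 28 further complement genes with 1 row each, 20 were tested, 1 was called higher (1.35% of all genes) and 0 lower by limma, with 3 higher (9.01% of all genes) and 0 lower at an unadjusted p under 0.05 and a median of 0.19. The call was ITGAM, the alpha chain of complement receptor 3 on myeloid cells, at 3.72 ± 1.29 against 1.26 ± 0.109 FPKM (log2 fold change 1.22, SE 0.19, adjusted p = 0.00585). The most abundant were CLU, a secreted inhibitor of the pore, with 564 against 500 FPKM (0.14), C1QBP, a mitochondrial and surface C1q-binding protein, with 38.9 against 28.8 FPKM (0.40, adjusted p = 0.235), and the scavenger collectin COLEC12 with 31.4 against 35.1 FPKM (-0.18). FCN2, a ficolin that starts the lectin pathway, had the largest difference of the list (1.25, adjusted p = 0.147) and is named after its values were seen.

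Of 29 further coagulation genes 13 were tested and 0 were called in either direction by limma, where 3.00% of all genes were. At an unadjusted p under 0.05, 2 were higher (9.01% of all genes) and 1 lower (9.39% of all genes), and the median was -0.06. Of those 2, F12 passed the filter through the diabetic wounds, since 6 diabetic and 0 non-diabetic wounds reached 0.5 FPKM. It is named after its values were seen. The most abundant genes of this list serve the secretion of factors or platelet adhesion. VKORC1, which recycles vitamin K, had 125 against 132 FPKM, LMAN1, which carries factors V and VIII out of the endoplasmic reticulum, 37.2 against 41.7 FPKM, and VWF, the endothelial platelet adhesion protein, 35.9 against 30.9 FPKM. FGA, F11, F13B, SERPINA5 and HRG had 0 reads in every wound, as had PLG, the gene of plasminogen. Of 5 hepatocyte markers 1 was tested, APOA1, with 101 ± 14.4 against 95.4 ± 4.25 FPKM (0.07), which makes up nearly all of the list's sum of 74.9 to 119 FPKM. ALB and TTR had fewer than 10 reads per wound, AHSG had 0, and AMBP stood at 0.0459 to 0.170 FPKM. Of 11 further fibrinolysis genes 9 were tested and 0 called (3.00% of all genes), with a median of 0.23. At an unadjusted p under 0.05, 1 was higher (9.01% of all genes) and 0 lower (9.39% of all genes). The higher gene, SERPINF2, passed the filter through the diabetic wounds, since 5 diabetic and 2 non-diabetic wounds reached 0.5 FPKM. It is named after its values were seen. ANXA2 and S100A10, which together bind plasminogen at the cell surface, had 739 against 697 FPKM (0.08) and 222 against 191 FPKM (0.21), and THBS1, a platelet and matrix glycoprotein, had 92.7 against 68.7 FPKM (0.23). Erythroid markers (4 genes) summed to 0.446 to 19.4 FPKM in diabetic wounds against 19.1 to 43.1 FPKM in non-diabetic ones, and platelet markers (5 genes) to 2.56 to 5.27 and 2.99 to 3.86 FPKM, and their part in these levels was not tested.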

How the data were processed

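Messenger RNA was captured by poly-T beads and made into directional dUTP libraries, 1 for each of the 7 diabetic and 4 non-diabetic wounds. Per the labels, the authors used fastp for trimming, aligned reads with HISAT2 2.2.1 to the Sscrofa11.1 build, assembled with StringTie 2.2.3 and counted with featureCounts 2.0.6, and they deposited FPKM values for each gene with its length. The annotation release, the formula behind the FPKM values and the strand setting of the counting are not given in the sources used here. Multiplied by gene length, 100.0% of the values came out as whole reads within 0.05 reads, and those reads gave the depth per wound.

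Here log2(FPKM + 0.5) of the genes with at least 0.5 FPKM in at least 4 wounds was compared by limma, with lmFit, a trended eBayes and no covariate, and p-values were adjusted by Benjamini-Hochberg over all 13956 genes. Fold changes are on that scale and understate the change of low genes. Members and marker lists were chosen with earlier results of these data known. All members are named, and of the other pathway genes those called or among the 3 most abundant of their list, besides those said to be named after their values were seen. Genes under the filter were compared by two-sided exact permutation over 330 splits. Levels are compared between genes only as FPKM, which is per length. As alternatives, other pseudocounts, filters, scalings and variance settings were tried, as were weights per library, the replicate number as a block, the letter as a covariate, voom on the recovered reads and leaving out wounds. An interaction with the letter and the motif GGAAGT were added after seeing the data. Promoter windows came from the RefSeq genome of Sscrofa11.1, whose gene starts matched for 100.0% of 30335 identifiers. The fit was tested on simulated data. The tools were limma 3.58.1 in R 4.3.3, and pandas 2.3.3 and SciPy 1.17.1 in Python 3.11.15.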

Additional observations from a re-analysis of the deposited data

Results flagged for a closer look

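Among 65 groups of wounds (33 members in 2 groups, C6 in non-diabetic wounds left out for being at 0 throughout), 7 held a wound far from the others by Dixon's criterion, which chance gives in about 1 of 20 groups. Non-diabetic replicate 1 was lowest for CFB at 0.437 FPKM, with the next at 0.692 FPKM. Diabetic replicate 2 was highest for C7 at 2.63 FPKM (next 1.24 FPKM), diabetic replicate 1 for CD46 at 42.0 FPKM (next 30.9 FPKM) and diabetic replicate 7 for C6 at 0.0474 FPKM, which is 4 reads. Non-diabetic replicate 3 was highest for CFI at 1.61 FPKM (next 0.928 FPKM), non-diabetic replicate 4 for PROCR at 16.5 FPKM (next 6.91 FPKM), and non-diabetic replicate 2 was lowest for TFPI at 0.679 FPKM (next 1.09 FPKM).

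The difference between diabetic and non-diabetic wounds in F13A1 was not the same in the 2 sorts of library name. It was smaller by 1.23 on the log2 scale among R-named than among L-named wounds (interaction -1.23, SE 0.31, limma adjusted p = 0.0486), where 6.46% of all genes tested had an interaction at an adjusted p under 0.05. The meaning of the letter is not given in the labels, and 11 of the 31 members tested (35.5%) and 31.4% of all genes had an unadjusted interaction p under 0.05. The 2 wounds apart, non-diabetic replicate 1 (L-named) and diabetic replicate 4 (R-named), were included, and the interaction was not fitted without them.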

How the results depend on the processing

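CFP was called higher under 22 of 23 alternatives (log2 fold change 1.47 to 1.81), the exception being the replicate block (1.52, adjusted p = 0.145), and no member was called lower under any. The wounds share only a number, since same-numbered wounds correlated at -0.27, 0.22, 0.07 and -0.48, so the block result is given here alone. The members called higher numbered 6 with library weights (CFP, C1QA, C1QB, C1QC, C1R and CFD), 0 with the replicate block, and 1 to 2 when 1 wound was left out, with CFB added without diabetic replicate 7 and PROCR without non-diabetic replicate 4. Over all genes 419 calls became 822 with library weights, 16 with the replicate block, 187 without the 2 wounds apart, and 181 to 483 when 1 wound was left out, lowest without non-diabetic replicate 1. The fold change turned sign in members near 0. With the replicate block it was -0.099 in C5AR1, -0.016 in PROS1 and 0.057 in TFPI. It was -0.017 in PROS1 when rescaled to TPM, -0.058 in PROS1 and -0.00033 in CD46 with quantile normalization, -0.0077 in CD46 with library weights and -0.0052 in CD55 without the 2 wounds apart. Leaving out 1 wound gave -0.091 (non-diabetic replicate 3) to 0.25 in C5AR1, with -0.0041 without diabetic replicate 7, -0.065 (non-diabetic replicate 1) to 0.38 in CD55 and -0.029 (non-diabetic replicate 3) to 0.17 in PROS1. The causes were not tested. In all, 689 comparisons of a member's fold change with its main value kept both direction and side of the threshold, 12 turned, 7 passed the threshold anew and 1 lost it. F5 reached an adjusted p of 0.0465 with no variance trend and 0.0313 with library weights, but not the fold threshold. The fewest reads stood behind C6, C5, C7 and F10, which limits their precision most.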
